A study of Homo sapiens with 4 samples.

Results

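Markers of astrocyte and glioma identity were examined in U118-MG cells, an established human glioma line, with and without overexpression of SPNS2, which carries the lipid mediator sphingosine 1-phosphate out of cells. The 10 markers, GFAP, S100B, AQP4, GJA1, CLU, OLIG2, NES, CD44, CHI3L1 and SPARC, were taken by gene symbol from the 61806 genes of the deposited count table. All 10 were found, each once. One group, labelled U118-SPNS2 with the treatment SPNS2 overexpressed, had been infected with a pCDH-CMV-MCS-EF1-puro lentivirus that carries the SPNS2 cDNA. The other group, labelled U118-NC with the treatment control, had received the negative control vector. Each group has 2 libraries, replicates 1 and 2, and all 4 carry the genotype label WT. Both groups were thus the same line with a lentiviral vector, and whether the infected cells were kept as pools or as clones is not given in the labels. Nothing in the labels says that the replicates were separate cultures, so the p-values measure only the spread between these libraries, which may be technical.

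Astrocytes are the glial cells that take up glutamate and potassium, couple to each other through gap junctions and hold the intermediate filament protein GFAP, the classical histological marker of the astrocyte and of astrocytic tumours. S100B (a calcium-binding protein), AQP4 (the water channel of astrocyte endfeet), GJA1 (the gap junction protein connexin 43) and CLU (the secreted chaperone clusterin) are further genes that astrocytes express. OLIG2 is a transcription factor of the oligodendrocyte lineage that most diffuse gliomas express, NES encodes the intermediate filament nestin of neural progenitors, and CD44 (the hyaluronan receptor), CHI3L1 (the secreted chitinase-like protein YKL-40) and SPARC (a secreted matricellular protein) are abundant in gliomas with mesenchymal features. Several of these genes are also expressed outside glia, and CD44 and SPARC are common in cultured mesenchymal cells.

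Total counts per library were 31353373 and 34125159 in SPNS2 and 31513400 and 32992150 in NC. SPNS2 itself had 7381 and 8224 counts in the SPNS2 libraries, against 42 and 47 counts in the NC libraries. A gene entered the test if it passed a minimum count of 10, and 17853 genes did, 6 of the 10 markers among them. SPNS2 was set against NC by the edgeR quasi-likelihood test, and calls were made where the p, adjusted by Benjamini-Hochberg over all tested genes, was under 0.05.

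GFAP, S100B, AQP4 and OLIG2 had under 10 counts in each of the 4 libraries and were not tested. These are the glial markers that the line lacked in both groups at this depth. GFAP (ENSG00000131095, chromosome 17, 44903161 to 44916937 on hg38) had 4 and 0 counts in the SPNS2 libraries, against 0 and 8 counts in the NC libraries. Each group thus held a library with a few reads and a library with none, and the groups overlapped. The summed GFAP count corresponded to 0.0624 CPM (the count relative to the scaled total of its library) in SPNS2, with an exact 95% Poisson interval of 0.017 to 0.16 CPM, and to 0.122 CPM in NC, with an interval of 0.0526 to 0.24 CPM. These intervals cover counting error only.

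S100B (ENSG00000160307, chromosome 21, 46598962 to 46605208) had 0 counts in all 4 libraries, for which the same exact 95% Poisson interval over the summed libraries of a group reached 0.0575 CPM in SPNS2 and 0.0561 CPM in NC. AQP4 (ENSG00000171885, chromosome 18, 26852038 to 26865818) had 0 and 0 counts in SPNS2, against 0 and 3 counts in NC. OLIG2 (ENSG00000205927, chromosome 21, 33025845 to 33029196) had 0 and 0 counts in SPNS2, against 4 and 0 counts in NC. For AQP4 and OLIG2, an NC library with a few reads stood beside an NC library with none, and no difference between the groups was detectable. Without the low-count filter, GFAP, AQP4 and OLIG2 had edgeR adjusted p-values of 0.858, 0.545 and 0.518. On the other strand of the AQP4 locus, the annotated antisense gene AQP4-AS1 had 10 and 31 counts in SPNS2 and none in either NC library (edgeR adjusted p = 0.0522). Whether the counting used strand is not given in the sources used here, so reads of a gene and its antisense partner cannot be told apart.

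**Figure D1:**
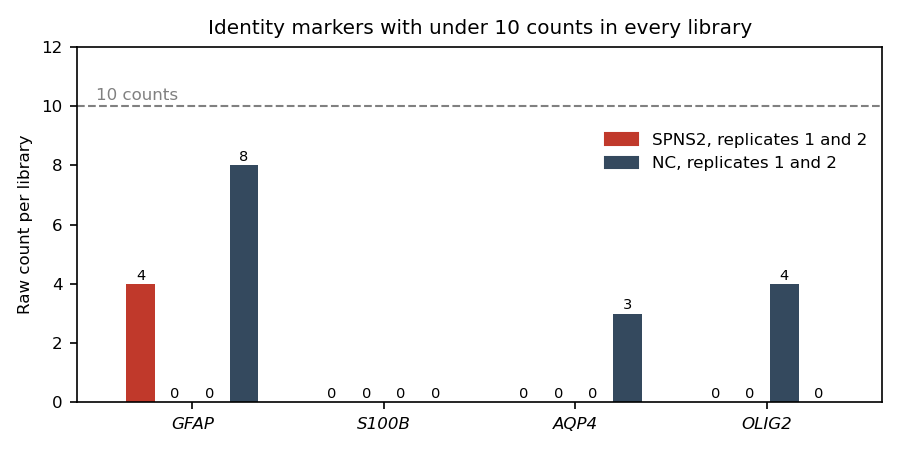
Raw counts (y axis) of GFAP, S100B, AQP4 and OLIG2 (x axis) in each library, with SPNS2 replicates 1 and 2 left of NC replicates 1 and 2 for each gene; the dashed line marks 10 counts. The highest bar is the 8 counts of GFAP in NC replicate 2, and S100B has 0 in all 4 libraries.

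The other 6 markers were expressed in every library. GJA1 (ENSG00000152661, chromosome 6, 121435577 to 121449727) had 5451 and 5862 counts in SPNS2, against 15879 and 15791 counts in NC. Its level was 176 ± 0.978 CPM in SPNS2 and 482 ± 18.4 CPM in NC (SD, n = 2 each), 2.73-fold lower in SPNS2. The SPNS2 libraries lay together and far below both NC libraries, and the log2 fold change was -1.45 (SE 0.055, edgeR adjusted p = 0.00111). Levels here are averages over a whole culture, so fewer cells with a transcript and less transcript per cell cannot be told apart.

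CLU (ENSG00000120885, chromosome 8, 27596917 to 27615031) had 2542 and 2249 counts in SPNS2, against 8546 and 9348 counts in NC. It had the lowest fold change of the 6, at 75.0 ± 10.7 CPM in SPNS2 and 272 ± 7.93 CPM in NC (SD, n = 2 each), 3.63-fold lower in SPNS2. The groups did not overlap, and the log2 fold change was -1.86 (SE 0.12, edgeR adjusted p = 0.00273). Only 4.78% of all tested genes had a lower log2 fold change than CLU, and 7.0% had a lower one than GJA1. Both calls held under each of the 13 alternatives run.

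CHI3L1 (ENSG00000133048, chromosome 1, 203178931 to 203186749) had 284 and 302 counts in SPNS2, against 1001 and 652 counts in NC. The SPNS2 libraries lay close together at 9.23 and 9.05 CPM, while the NC libraries, at 31.2 and 19.4 CPM, differed between themselves by more than the SPNS2 level. CHI3L1 was 2.77-fold lower in SPNS2, on the log2 scale -1.47 (SE 0.26, edgeR adjusted p = 0.0248). The value was -1.77 without NC replicate 2 and -1.08 without NC replicate 1, both called. The call was lost when SPNS2 replicate 1 or 2 was left out (adjusted p = 0.0933 and 0.0967), in a range of 1.43e-05 to 0.0967 over all alternatives.

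NES (ENSG00000132688, chromosome 1, 156668763 to 156677397) had 311 and 365 counts in SPNS2, against 552 and 684 counts in NC. Its level was 10.5 ± 0.592 CPM in SPNS2 and 18.8 ± 2.2 CPM in NC (SD, n = 2 each), 1.78-fold lower in SPNS2. The groups did not overlap, and the log2 fold change was -0.84 (SE 0.15, edgeR adjusted p = 0.0243). This call depended on having all 4 libraries, since it was lost when any of them was left out: the adjusted p was 0.0968 and 0.0798 with SPNS2 replicate 1 or 2 left out and 0.058 and 0.103 with NC replicate 1 or 2 left out, in a range of 0.000372 to 0.103 over all alternatives. The fold change kept its sign in each.

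CD44 and SPARC, in contrast to these, were not called in either direction. CD44 (ENSG00000026508, chromosome 11, 35138870 to 35232402) had 11273 and 14030 counts in SPNS2, against 10747 and 11285 counts in NC. Its level was 366 and 421 CPM in SPNS2, against 335 and 335 CPM in NC. Both SPNS2 libraries were above both NC libraries but differed from each other by more than the lower of them did from NC. The log2 fold change was 0.23 with a 95% interval of 0.01 to 0.45 (SE 0.081, edgeR adjusted p = 0.117). Without SPNS2 replicate 1 it was 0.34 and was called (adjusted p = 0.0465, in a range of 0.0465 to 0.54 over all alternatives), and without SPNS2 replicate 2 it was 0.13.

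SPARC (ENSG00000113140, chromosome 5, 151661096 to 151687165) had 18702 and 19126 counts in SPNS2, against 16079 and 17342 counts in NC. Its level was 608 and 573 CPM in SPNS2, against 502 and 515 CPM in NC. The groups did not overlap, and the log2 fold change was 0.22 with a 95% interval of 0.07 to 0.36 (SE 0.053, edgeR adjusted p = 0.0516). The p lay at the threshold: DESeq2 (adjusted p = 0.047), limma-voom (0.0419), a robust edgeR fit (0.0404) and RLE factors (0.0478) each called SPARC higher, in a range of 0.0404 to 0.187 over all alternatives. SPARC lies on 5q, where the median log2 fold change of the 701 tested genes was 0.43, above that of SPARC itself. When the arm medians were taken out of the SPNS2 libraries, SPARC was -0.22 (adjusted p = 0.0581), in the opposite direction. The arm medians of the other 5 expressed markers lay between -0.16 (6q, GJA1) and 0.16 (8p, CLU).

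**Figure D2:**
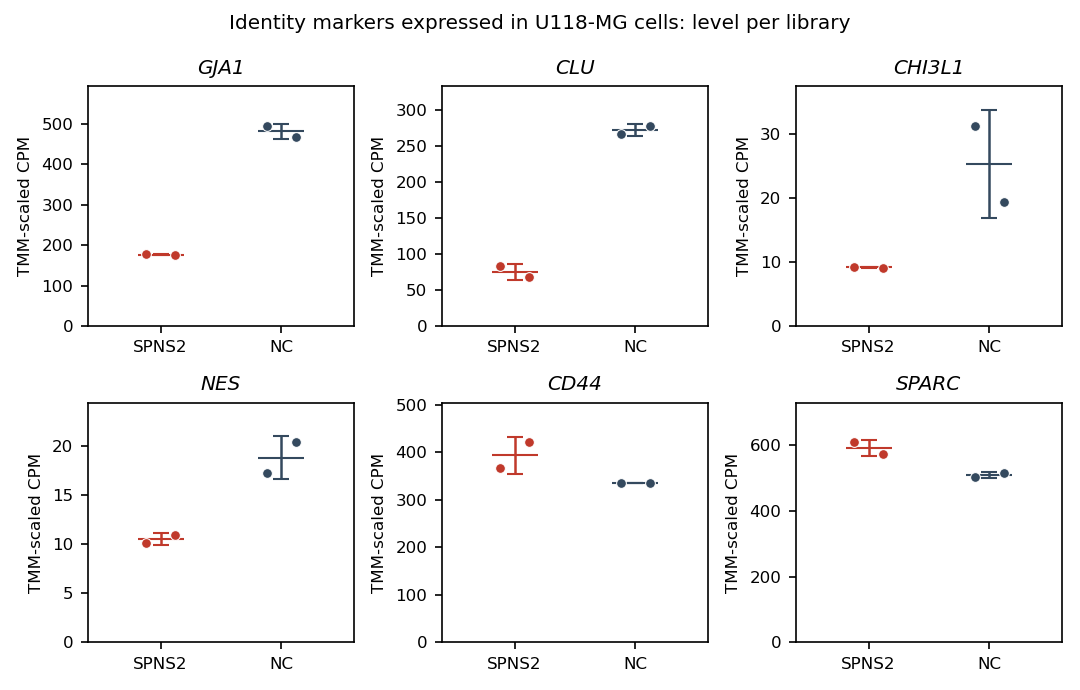
TMM-scaled CPM (y axis, from 0) of the 6 expressed markers in the SPNS2 and NC libraries (x axis); points are libraries, horizontal bars the mean and whiskers the SD of 2 libraries. GJA1, CLU, CHI3L1 and NES lie lower in both SPNS2 libraries, and CD44 and SPARC lie slightly higher in them.

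Of the 10 markers, 4 fell in SPNS2 (GJA1, CLU, CHI3L1 and NES), 2 were tested and not called, and 4 were too low to test. Among all tested genes, 11.3% were called lower and 12.1% higher, 23.4% in all. The groups did not overlap at any of the 6 tested markers, as was the case for 66% of all tested genes. The edgeR test called 0 of the markers higher, 2 of them had an unadjusted p under 0.05 with a higher level in SPNS2, and DESeq2 and limma-voom called 1 each. The median log2 fold change was -1.14 over the 6 tested markers and -0.01 over all 17853 tested genes. With each library left out in turn, 2 to 3 markers were called lower, and the number of all called genes, 4171 with every library, was 1712 to 2144.

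**Figure D3:**
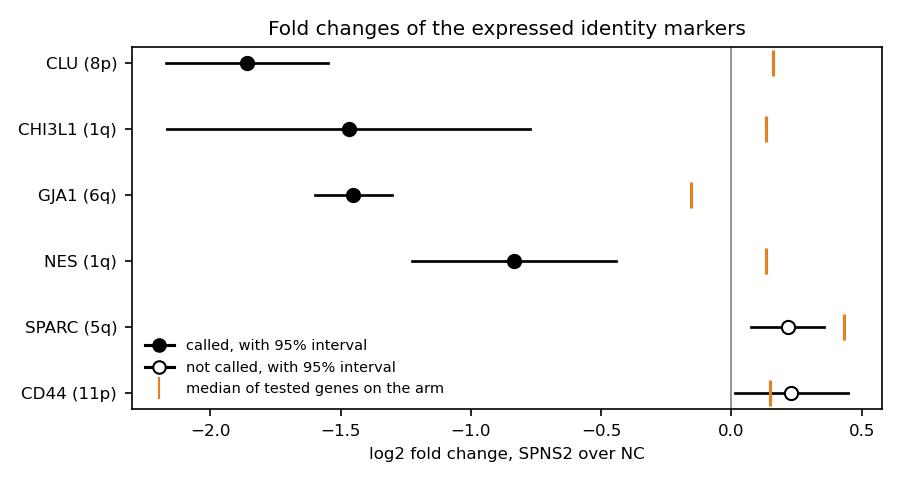
Log2 fold change of SPNS2 over NC (x axis) for the 6 expressed markers (y axis, with chromosome arm); filled points were called by edgeR, open points were not, lines are 95% intervals, and orange ticks are the median of the tested genes on the same arm. The intervals of the 4 called markers lie below 0, from CLU at -1.86 to NES at -0.84, and the tick of 5q, at 0.43, lies above SPARC.

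Levels of different genes were compared per kilobase of merged exons. In SPNS2 the order was SPARC (122 CPM per kb), GJA1 (51.7), CD44 (39.3), CLU (11.3), CHI3L1 (2.68) and NES (1.89). In NC the order was GJA1 (141 CPM per kb), SPARC (105), CLU (41.1), CD44 (33.5), CHI3L1 (7.42) and NES (3.38). Within each group no gene overlapped its neighbour in the order across the 2 libraries. GJA1 stood first in NC and below SPARC in SPNS2, and CLU stood above CD44 in NC and below it in SPNS2. With the length of the principal annotated transcript in place of merged exons, the order in NC was the same, and in SPNS2 CD44 (68.6 CPM per kb) stood above GJA1 (56.0). Averaged over all libraries, the per-kilobase level of SPARC exceeded that of 98.5% of the tested genes with an annotated length, that of GJA1 98.0%, that of CD44 93.3% and that of CLU 90.2%, whereas CHI3L1 exceeded 57.4% and NES 43.8%. NES, the progenitor filament gene, was thus of middling abundance in the line.

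The sequences upstream of the RefSeq starts of 3 of the markers that fell are shown so that their core elements can be compared. RefSeq promoters on GRCh38.p14 were at hand for 6 of the 10 markers. CLU, which also fell, was not among them. The 250 bases before the RefSeq start are given 5′ to 3′ on the gene's strand. Capitals mark 3 motifs, each searched on both strands, with no overlap between them here. TGANTCA stands for the letters bound by AP-1 factors. The letters TATAAA are those of a TATA box. A GC box was searched as GGGCGG, whose other strand reads CCGCCC. The windows are chr6:121435396-121435645 (plus strand) for GJA1, chr1:203186705-203186954 (minus strand) for CHI3L1 and chr1:156677408-156677657 (minus strand) for NES. RefSeq starts differ from the ends of the gene spans given above. The GJA1 and CHI3L1 windows overlap those spans, with their marked matches inside, and the NES window does not. The windows of CD44 and SPARC lie wholly inside the spans.
GJA1: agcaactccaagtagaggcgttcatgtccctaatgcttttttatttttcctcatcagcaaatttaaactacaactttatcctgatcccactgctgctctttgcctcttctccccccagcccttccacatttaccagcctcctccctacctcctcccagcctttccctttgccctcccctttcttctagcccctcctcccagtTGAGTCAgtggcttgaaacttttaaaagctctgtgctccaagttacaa
CHI3L1: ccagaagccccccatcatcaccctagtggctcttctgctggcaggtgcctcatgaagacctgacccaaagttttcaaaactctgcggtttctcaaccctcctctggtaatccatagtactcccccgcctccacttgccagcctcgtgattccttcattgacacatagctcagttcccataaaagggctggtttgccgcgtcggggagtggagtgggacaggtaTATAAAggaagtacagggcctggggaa
NES: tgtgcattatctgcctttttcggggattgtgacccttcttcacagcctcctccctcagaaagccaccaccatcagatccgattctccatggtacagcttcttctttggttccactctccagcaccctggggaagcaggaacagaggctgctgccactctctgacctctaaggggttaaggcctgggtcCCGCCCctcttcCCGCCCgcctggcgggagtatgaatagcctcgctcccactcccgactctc
The GJA1 window held 1 TGANTCA, which ended 41 bases before the start. Of the 35116 RefSeq promoter windows of this length, 6.57% held a TGANTCA at any position. The CHI3L1 window held 1 TATAAA, which ended 21 bases before the start, and 10.7% of all windows held a TATAAA at any position. The NES window held 2 GGGCGG matches, a motif found in 42.6% of all windows. CG dinucleotides numbered 1 in GJA1, 6 in CHI3L1 and 8 in NES, with a median of 11 over all windows. The windows of CD44 and SPARC, which were not called, held 15 and 7. The CD44 window also held 2 GGGCGG matches, as the NES window did, and the SPARC window held none of the 3 motifs. None of the 3 motifs was common to the windows of GJA1, CHI3L1 and NES.

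The wider set of glial genes was taken from lists of marker genes. Of 20 further astrocyte markers, 16 were tested, 2 rose in SPNS2, 3 fell and 11 were not called, with a median log2 fold change of -0.14. SLC1A3, the glial glutamate transporter EAAT1, had 621 and 595 counts in SPNS2, against 36 and 31 counts in NC. Both SPNS2 libraries were far above both NC libraries, at 19 ± 1.65 CPM in SPNS2 and 1.02 ± 0.143 CPM in NC (SD, n = 2 each), and the log2 fold change was 4.21 (SE 0.2, edgeR adjusted p = 0.00158). It lies on 5p, and its call held under all 13 alternatives. VIM, the intermediate filament gene vimentin, was the most abundant of the list and rose to 6524 ± 428 CPM in SPNS2, against 4392 ± 497 CPM in NC (log2 fold change 0.57, edgeR adjusted p = 0.0205). The VIM call was lost with arm medians removed (edgeR adjusted p = 0.06), with a block for the replicate number (0.0579) and without SPNS2 replicate 1.

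NFIB and NFIA, transcription factors of gliogenesis, both fell. NFIB was at 4.84 ± 0.364 CPM in SPNS2 and 22 ± 0.754 CPM in NC (log2 fold change -2.18, edgeR adjusted p = 0.00278), and NFIA was at 3.18 ± 0.0837 CPM in SPNS2 and 6.94 ± 0.0658 CPM in NC (log2 fold change -1.13, edgeR adjusted p = 0.0181). The NFIA call was lost whenever a library was left out. SOX9, a transcription factor of astrocyte specification, was at 83.0 ± 0.724 CPM in SPNS2 and 70.7 ± 7.55 CPM in NC (edgeR adjusted p = 0.159). ID3, an inhibitor of helix-loop-helix factors, was at 73.6 ± 1.26 CPM in SPNS2 and 60.9 ± 3.87 CPM in NC (edgeR adjusted p = 0.0727). As with GFAP and S100B, 4 astrocyte genes were under 10 counts in every library: HEPACAM, an adhesion protein of astrocytes, had 0 in all 4, and ALDH1L1, GJB6 and MLC1 had at most 6.

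Among 15 markers of oligodendrocytes and their progenitors, 7 were tested, of which 1 rose, 2 fell and 4 were not called, with a median of -0.25. The other 8 had under 10 counts in every library, as OLIG2 did, and 4 of them (SOX10, MOG, MAG and MOBP) had 0 in all. OLIG1, the paralogue next to OLIG2 on chromosome 21, had 0 and 1 counts in SPNS2, against 0 and 0 counts in NC. PDGFRA, the growth factor receptor that marks progenitors and is also expressed by fibroblasts, was at 419 ± 8.09 CPM in SPNS2 and 1166 ± 54.2 CPM in NC (log2 fold change -1.48, edgeR adjusted p = 0.00111). CSPG4, the proteoglycan NG2, was at 307 ± 0.943 CPM in SPNS2 and 363 ± 10.1 CPM in NC (log2 fold change -0.24, edgeR adjusted p = 0.0363). Its call was lost with any library left out, without the low-count filter (edgeR adjusted p = 0.0548), with a block for the replicate number (0.0901) and with arm medians removed (0.733). The range over all alternatives was 0.0216 to 0.733. NKX2-2, a transcription factor of this lineage, rose to 33.5 ± 0.165 CPM in SPNS2, against 23.8 ± 1.44 CPM in NC (log2 fold change 0.49, edgeR adjusted p = 0.0336). Its call was also lost with any library left out, with a block for the replicate number (edgeR adjusted p = 0.0847) and with arm medians removed (0.106). CNP, a myelin enzyme also found in other cells, was at 104 ± 13.8 CPM in SPNS2 and 95 ± 3.88 CPM in NC (edgeR adjusted p = 0.462).

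Beside NES, 13 neural stem and progenitor markers were listed. Of these, 3 were tested, 2 fell, and 1 was not called, with a median of -0.80. By the edgeR test 0 rose, with 0 at an unadjusted p under 0.05 and 0 by DESeq2 or limma-voom. TNC, the matrix protein tenascin C, was at 2126 ± 5.93 CPM in SPNS2 and 3690 ± 89.6 CPM in NC (log2 fold change -0.80, SE 0.035, edgeR adjusted p = 0.00138). PAX6, a transcription factor of neural progenitors, was at 4.81 ± 0.277 CPM in SPNS2 and 8.7 ± 0.707 CPM in NC (log2 fold change -0.85, edgeR adjusted p = 0.0323). Its call was lost with any library left out, without the low-count filter (edgeR adjusted p = 0.0521) and with a block for the replicate number (0.0861). SOX2 had 0 and 4 counts in SPNS2 and none in NC, and MSI1, HES5 and DLL3 had 0 in all 4 libraries. The third tested gene, HOPX, had 24 and 10 counts in SPNS2, against 16 and 39 counts in NC.

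The mesenchymal glioma markers listed beside CD44 and CHI3L1 were all expressed: 18 of 18 were tested, of which 1 rose, 3 fell and 14 were not called, with a median of 0.03. TGFBI, a matrix protein induced by transforming growth factor beta, was at 18.7 ± 3.82 CPM in SPNS2 and 85.9 ± 2.95 CPM in NC (log2 fold change -2.20, edgeR adjusted p = 0.00359). PDPN, the membrane glycoprotein podoplanin, was at 56.7 ± 1.02 CPM in SPNS2 and 98.2 ± 1.43 CPM in NC (log2 fold change -0.79, edgeR adjusted p = 0.00413). LGALS1, galectin 1, rose to 1139 ± 42.4 CPM in SPNS2, against 779 ± 8.24 CPM in NC (log2 fold change 0.55, edgeR adjusted p = 0.00475). FN1, the matrix protein fibronectin, was at 12187 ± 49.4 CPM in SPNS2 and 11697 ± 133 CPM in NC (edgeR adjusted p = 0.148). ANXA1 and ANXA2, annexins of the membrane, were not called either (adjusted p = 0.233 and 0.183). FN1 and ANXA2 were called higher with arm medians removed (adjusted p = 0.0103 and 0.0319, in ranges of 0.0103 to 0.936 and 0.0319 to 0.458).

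Related genes of 4 members were also listed. In the SPARC family, SPOCK1, a testican proteoglycan, was at 244 ± 12.1 CPM in SPNS2 and 73.3 ± 1.39 CPM in NC (log2 fold change 1.73, SE 0.067, edgeR adjusted p = 0.00111). SMOC1 and SPOCK3 fell, with log2 fold changes of -1.52 and -2.18 (edgeR adjusted p = 0.0224 and 0.0137), calls that were lost when NC replicate 2 or either SPNS2 library was left out. FSTL1 was at 812 ± 84.3 CPM in SPNS2 and 1149 ± 173 CPM in NC (log2 fold change -0.50, edgeR adjusted p = 0.0605). It was called lower with DESeq2 (adjusted p = 0.0104), library totals only (0.0469) and the replicate block (0.027), in a range of 0.0104 to 0.177 over the alternatives. Of the 7 genes of that family, 4 were tested, 1 rose, 2 fell and 1 was not called, with a median of -1.01. SPARCL1, the closest relative of SPARC and itself an astrocyte gene, had 10 and 2 counts in SPNS2, against 2 and 0 counts in NC.

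CHI3L2, a chitinase-like relative of CHI3L1, had 120 and 75 counts in SPNS2, against 452 and 324 counts in NC. Its log2 fold change was -1.95 (SE 0.36, edgeR adjusted p = 0.0273), a call lost when SPNS2 replicate 2 (adjusted p = 0.0706), NC replicate 1 (0.0931) or NC replicate 2 (0.0561) was left out, in a range of 2.29e-05 to 0.0931. Like CHI3L1, it was lower in both SPNS2 libraries than in both NC libraries. CHID1 was at 39.0 ± 1.27 CPM in SPNS2 and 40.8 ± 2.17 CPM in NC (edgeR adjusted p = 0.648), and the chitinases CHIT1 and CHIA had 0 counts in all 4 libraries. Of these 4 relatives, 1 fell and 0 rose, with 0 higher at an unadjusted edgeR p under 0.05 and 0 by DESeq2 or limma-voom, and the median of the 2 tested was -1.01.

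Of 13 genes of CD44 ligands and hyaluronan handling, 10 were tested, 2 rose, 4 fell and 4 were not called, with a median of -0.47. TNFAIP6, which transfers heavy chains onto hyaluronan, was at 5.07 ± 0.284 CPM in SPNS2 and 44.1 ± 1.32 CPM in NC (log2 fold change -3.12, SE 0.11, edgeR adjusted p = 0.00111). CEMIP, a hyaluronan-degrading protein, was at 16.2 ± 0.885 CPM in SPNS2 and 66.1 ± 17.5 CPM in NC (log2 fold change -2.03, edgeR adjusted p = 0.00737). SPP1, the CD44 ligand osteopontin, rose to 42.7 ± 1.75 CPM in SPNS2, against 17 ± 0.642 CPM in NC (log2 fold change 1.32, edgeR adjusted p = 0.00364). HMMR, a hyaluronan receptor that also acts at the mitotic spindle, was at 82.2 ± 3.55 CPM in SPNS2 and 49.7 ± 8 CPM in NC (log2 fold change 0.72, edgeR adjusted p = 0.0258). It lies on 5q, and its call was lost with arm medians removed (adjusted p = 0.199, in a range of 0.000142 to 0.199) and without NC replicate 1, SPNS2 replicate 1 or SPNS2 replicate 2. HAS2, the main hyaluronan synthase here, was at 408 ± 31.4 CPM in SPNS2 and 363 ± 14.6 CPM in NC (edgeR adjusted p = 0.18), and CEMIP2 was at 73.6 ± 18 CPM in SPNS2 and 56.1 ± 0.208 CPM in NC (edgeR adjusted p = 0.194). Without SPNS2 replicate 1, CEMIP2 was called higher, at a log2 fold change of 0.64 against 0.39 with all libraries (adjusted p = 0.0348, in a range of 0.0348 to 0.455).

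Among 12 connexins beside GJA1, 4 were tested, 1 fell and 3 were not called, with a median of -0.21. By edgeR 0 rose, with 0 at an unadjusted p under 0.05 and 0 by DESeq2 or limma-voom. GJC1, connexin 45, was the most abundant of them but differed between libraries of the same group, with 3051 and 6670 counts in SPNS2, against 3191 and 1613 counts in NC (edgeR adjusted p = 0.211). GJD3 had 2 and 4 counts in SPNS2, against 37 and 24 counts in NC (edgeR adjusted p = 0.0304), and lost its call with any library left out. GJB6, the second connexin of astrocytes, had 0 and 0 counts in SPNS2, against 0 and 3 counts in NC. GJA3 was at 2.54 ± 0.649 CPM in SPNS2 and 3.14 ± 0.646 CPM in NC (edgeR adjusted p = 0.53).

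Markers of other cell types were read in the same libraries. Of 11 mural cell and fibroblast markers all were expressed, 2 rose, 3 fell and 6 were not called, with a median of -0.32 and a summed level of 4247 to 4447 CPM in SPNS2 and 5258 to 5428 CPM in NC. DCN and LUM, the small leucine-rich proteoglycans decorin and lumican, were at 18.6 ± 3.99 and 90.4 ± 18.9 CPM in SPNS2 and at 609 ± 131 and 954 ± 140 CPM in NC (log2 fold changes -5.04 and -3.40, edgeR adjusted p = 0.00186 and 0.00236). COL3A1 fell as well (log2 fold change -3.20, edgeR adjusted p = 0.00304), whereas COL1A1 rose (0.44, edgeR adjusted p = 0.00475) and COL1A2 was at 1912 ± 71.2 CPM in SPNS2 and 1917 ± 92.8 CPM in NC (edgeR adjusted p = 0.967). These fibroblast markers and the identity markers moved between the same libraries, and the part of one in the other was not tested.

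Of 10 microglia and macrophage markers, AIF1, CX3CR1, P2RY12 and TYROBP had 0 counts in all 4 libraries. The summed level, 70.9 to 82.0 CPM in SPNS2 and 122 to 140 CPM in NC, was mostly CD68, a lysosomal gene, at 70.9 ± 7.45 CPM in SPNS2 and 120 ± 13.7 CPM in NC (edgeR adjusted p = 0.0195). TMEM119 also fell (log2 fold change -1.83, edgeR adjusted p = 0.0113). The call of CD68 was lost without SPNS2 replicate 2 or NC replicate 1, and that of TMEM119 without NC replicate 2. In this list 5 were tested, with a median of -0.76, 2 fell, 3 were not called and 0 rose by edgeR, although 1 was higher at an unadjusted p under 0.05 and by DESeq2 and limma-voom, CSF1R (edgeR adjusted p = 0.0552, and called without NC replicate 2 at 0.0475). Of 8 endothelial markers 4 were tested, 1 rose, 1 fell and 2 were not called, with a median of -0.04. Their summed level was 8.51 to 9.29 CPM in SPNS2 and 6.49 to 7.52 CPM in NC, with CLDN5 and FLT1 at 0 throughout. PECAM1 rose to 6.38 ± 0.475 CPM in SPNS2, against 3.03 ± 0.757 CPM in NC, VWF fell to 0.255 ± 0.191 CPM in SPNS2, against 1.61 ± 0.0553 CPM in NC (edgeR adjusted p = 0.0465 for each), and KDR was at 1.5 ± 0.333 CPM in SPNS2 and 1.16 ± 0.412 CPM in NC.

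Of 12 neuronal markers, RBFOX3, STMN2, ELAVL3, ELAVL4 and NEFM had 0 counts in all 4 libraries. In all, 5 were tested, 2 rose, 2 fell and 1 was not called, with a median of 0.64, and the summed level was 156 to 168 CPM in SPNS2 and 95.4 to 140 CPM in NC. Most of it was TUBB3, a beta tubulin that many tumour cells also express, at 147 ± 4.16 CPM in SPNS2 and 93.9 ± 34.4 CPM in NC (edgeR adjusted p = 0.156, called only when NC replicate 2 was left out). The synaptic genes moved in opposite directions: SYT1 fell to 2.56 ± 0.273 CPM in SPNS2, against 15.9 ± 0.396 CPM in NC (edgeR adjusted p = 0.00273), and SNAP25 rose to 10.4 ± 3.53 CPM in SPNS2, against 2.84 ± 1.15 CPM in NC (edgeR adjusted p = 0.0399). GAP43, a growth cone protein, fell to 0.345 ± 0.0637 CPM in SPNS2, against 4.65 ± 1.28 CPM in NC (edgeR adjusted p = 0.00631). MAP2 had 33 and 71 counts in SPNS2, against 8 and 8 counts in NC (edgeR adjusted p = 0.0318). The calls of SNAP25, MAP2, PECAM1 and VWF were lost under 5 to 8 of the alternatives, for SNAP25 and PECAM1 with any library left out and for MAP2 and VWF with any but SPNS2 replicate 1.

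**Figure D4:**
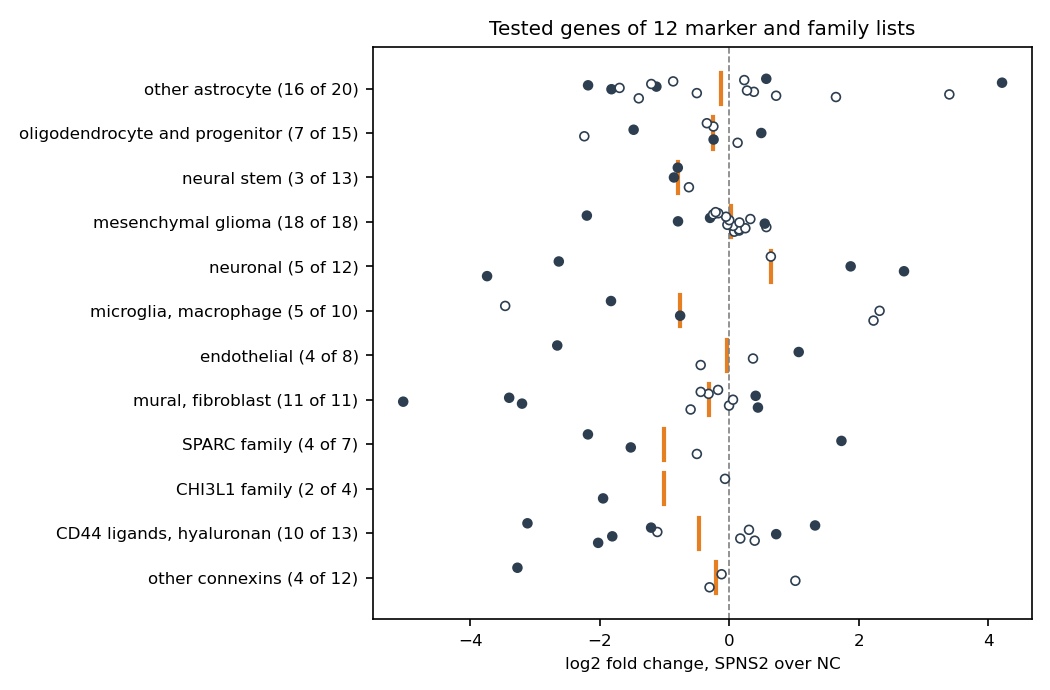
Log2 fold change of SPNS2 over NC (x axis) of each tested gene in 12 marker and family lists (y axis, with the number tested of the number listed); filled points were called by edgeR, orange bars are list medians and the dashed line is the median of all tested genes, -0.01. SLC1A3, at 4.21, is the highest point of the other astrocyte genes and DCN, at -5.04, the lowest of the mural and fibroblast genes.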

How the data were processed

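The authors deposited raw counts for each Ensembl gene, as whole numbers without normalization and with 1 column per library (2 SPNS2, 2 NC). The submitters' processing notes name Trim Galore 0.6.9, HISAT2 2.2.1, featureCounts 0.3 and hg38, without settings. The annotation, the strand setting and the handling of multiply mapped reads were not found in the labels or headers, and reads of overlapping or near-identical genes may be divided between them. Of the table, 61806 genes were used and 1 row that held no values was dropped. The libraries within a group differed beyond sampling noise (chi-square per degree of freedom 33.7 in SPNS2 and 27.5 in NC), and each was kept as a sample. This spread does not show that they came from separate cultures.

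Genes were filtered by filterByExpr (minimum count 10, minimum total 15), scaled by TMM and tested, two-sided, with glmQLFit and glmQLFTest (edgeR 4.0.16, R 4.3.3) with group alone in the model. A gene could pass this filter through either group alone. AQP4-AS1 and MAP2 passed only through the SPNS2 libraries and GJD3 only through the NC libraries, so each was tested because of the group where it was high. VWF, GAP43 and HOPX reached the minimum, scaled to library size, in both NC libraries and in SPNS2 replicate 1 alone of the SPNS2 libraries. CSF1R reached it in both SPNS2 libraries and in NC replicate 2 alone of the NC libraries. For these genes too, only the group with the higher mean met the filter by itself. Levels are TMM-scaled CPM. The SE is the log2 fold change over the root of F, and 95% intervals use the degrees of freedom of the fit. Positions and exon lengths are those of GENCODE 29 (GRCh38), found by Ensembl identifier for 17382 of the 17853 tested genes, and promoters those of RefSeq. Arms were separated at rounded centromere positions. RGS5, present under 2 identifiers, was read from the first.

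The members and the 12 lists (143 genes) were chosen with earlier results of these data known. Besides the members and SPNS2, the text names from each list up to 3 called genes with the smallest p and up to 3 with the highest mean CPM. AQP4-AS1, SPARCL1, OLIG1 and list genes at or near 0 counts were named after their values were seen. The values of some listed genes are not reported here, but they stayed in the counts. Simulated counts for SPNS2 against NC (17037 genes tested, trended dispersion) gave calls for 4% of 50 genes with a true fold of 1.5, 38% at a fold of 2, 76% at a fold of 4 and 96% at a fold of 8, with 0 unchanged genes among 107 calls. Only 50 genes were changed at each fold, whereas 4171 of the 17853 tested genes were called in the data. A call in the simulation thus needed a smaller unadjusted p. These shares therefore do not give the sensitivity or the false calls of the real test. As alternatives, DESeq2 1.42.0, limma-voom (limma 3.58.1), a robust fit, RLE factors, library totals, no filter, a minimum of 1 CPM on average, a block for the replicate number, removal of arm medians and the omission of each library were run.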

Additional observations from a re-analysis of the deposited data

How the results depend on the processing

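GJA1 and CLU kept their direction and their call under all 13 alternatives, with log2 fold changes of -1.51 to -1.29 and -2.02 to -1.72. The markers called higher, 0 in the edgeR test, were 1 (SPARC) with DESeq2, limma-voom, a robust fit and RLE factors, and 0 to 1 with a library left out, while 2 to 3 were called lower with a library left out. All called genes numbered 1976 with a replicate block and 1712 to 2144 with a library left out, against 4171. A lone library left in a group was assumed to vary like the others. The replicate numbers did not pair the libraries by the labels, and deviations of same-numbered libraries had a correlation of -0.08 across genes. The replicate block ended the call of NES (adjusted p = 0.0535, in a range of 0.000372 to 0.103) among the 10 markers, and the calls of 11 of the 51 other named genes, VIM and NFIA among them. SPARC was -0.22 with arm medians removed; the cause was not tested. Of the other named genes, none of which was called where its sign turned, CNP ranged from -0.0107 to 0.27, COL1A2 from -0.0551 to 0.0459 and HOPX from -1.44 to 0.10 with a library left out. The markers under 10 counts were left out by the low-count filter; without it GFAP, AQP4 and OLIG2 were tested and not called, and S100B had no reads to test.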
